A study of Mus musculus with 2 samples.

Results

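Transcript levels of 10 elastic fibre components were compared between ureters of mouse embryos labelled Tbx2/Tbx3cDKO (cDKO below) and control ureters. The ureter is the muscular tube that carries urine from the kidney to the bladder. The genes are Eln, Fbn1, Fbn2, Fbln1, Fbln2, Fbln5, Efemp2, Mfap2, Mfap4 and Mfap5, taken by name from the gene spots of both arrays, and make up 10 of the 23419 genes that could be tested. They are read by 14 probes with 1 spot each per array, and all 14 were well above background in all 4 RNAs, so every gene had a measured level. Per the labels all embryos were of the NMRI strain and at stage E18.5. At the Tbx18 locus cDKO embryos were Tbx18(cre/+) and controls Tbx18(+/+). At the floxed loci cDKO embryos were Tbx2(fl/fl) and Tbx3(fl/fl), and controls Tbx2(fl/?) and Tbx3(fl/?), so that controls carried floxed alleles too but no Cre. Each of 2 Agilent two-colour arrays held cDKO and control RNA side by side, 1 from males with the cDKO RNA in the red dye (AlexaFluor647) and 1 from females with the dyes exchanged. There are therefore n = 2 ratios per gene, and sex, dye orientation and replicate number cannot be told apart. How many embryos were pooled for an RNA is not given in the labels. The p-values rest on the spread between these 2 arrays, mostly as pooled over probes, and do not measure a spread between embryos.

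Elastic fibres let tissues recoil after stretch. They hold a core of crosslinked elastin on a scaffold of microfibrils, which are built of fibrillins and carry small associated glycoproteins, and fibulins help to place elastin on that scaffold. In hollow organs such fibres are made mainly by smooth muscle cells and fibroblasts. Tbx2 and Tbx3 encode T-box transcription factors of the ureteric mesenchyme, and Cre expressed from the Tbx18 locus acts in cells that express Tbx18 and in their descendants.

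Some facts of the arrays bear on every value. Of 43020 gene spots, the share well above background ran from 72.1% to 81.6% over the 4 channels, and the number of arrays limits the precision. The labels of the targeted genes could not be checked by their level, since probes may lie outside the deleted parts. Tbx2, Tbx3 and Tbx18 were higher in the cDKO RNA, by 0.74, 0.66 and 0.81 log2 units (limma adjusted p = 0.0273, 0.0305 and 0.00778). These calls were lost with processed signals, with median centring and with the deposited value table. Those of Tbx2 and Tbx3 were also lost with offset 0, and that of Tbx2 without a filter on dim probes. The female RNA labelled cDKO stood apart. Its Y-linked transcripts Ddx3y and Eif2s3y had processed signals of 359.6 and 491, against 4.46 and 13.8, not well above background, in the female control RNA. In male RNA Ddx3y was at 4236 in control and 2851 in cDKO, and Eif2s3y at 6739 and 5159. At its probes the X-linked Xist had 957 and 1146 in female control and 918 and 1212 in female cDKO RNA. In male RNA Xist was not well above background. The liver transcripts Alb, Afp, Apoa1, Apoa2, Ahsg and Fgb, a list set after the data were seen, had log2 ratios of 1.35 to 3.65 on the female array and of -0.78 to -0.18 on the male array. Values are therefore given for each array, and the male array alone is the result without that RNA.

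Elastic fibre genes were higher in the cDKO RNA on both arrays. All 10 had ratios above 1 in males and in females, which 31.7% of all genes had. The test was limma's on the mean of both log2 ratios, with Benjamini-Hochberg adjustment over all probes kept and a threshold of 0.05. By it 5 of the 10 genes rose, which are Fbln1, Fbln2, Fbln5, Mfap4 and Eln, against 2.18% of all genes called higher, and 0 fell, against 2.27% called lower. At an unadjusted p under 0.05 the same test took 8 of the 10, all of them higher, and 16% of all genes in either direction. The median log2 ratio of the 10 genes was 0.61, with 0.71 for males and 0.47 for females, and that of all genes was 0.0045. The 10 genes and the lists below were chosen with earlier results of these data known. Counts set beside the share of all genes therefore describe a list and do not test it. In whole tissue, more cells of a type and more RNA per cell cannot be told apart.

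**Figure D1:**
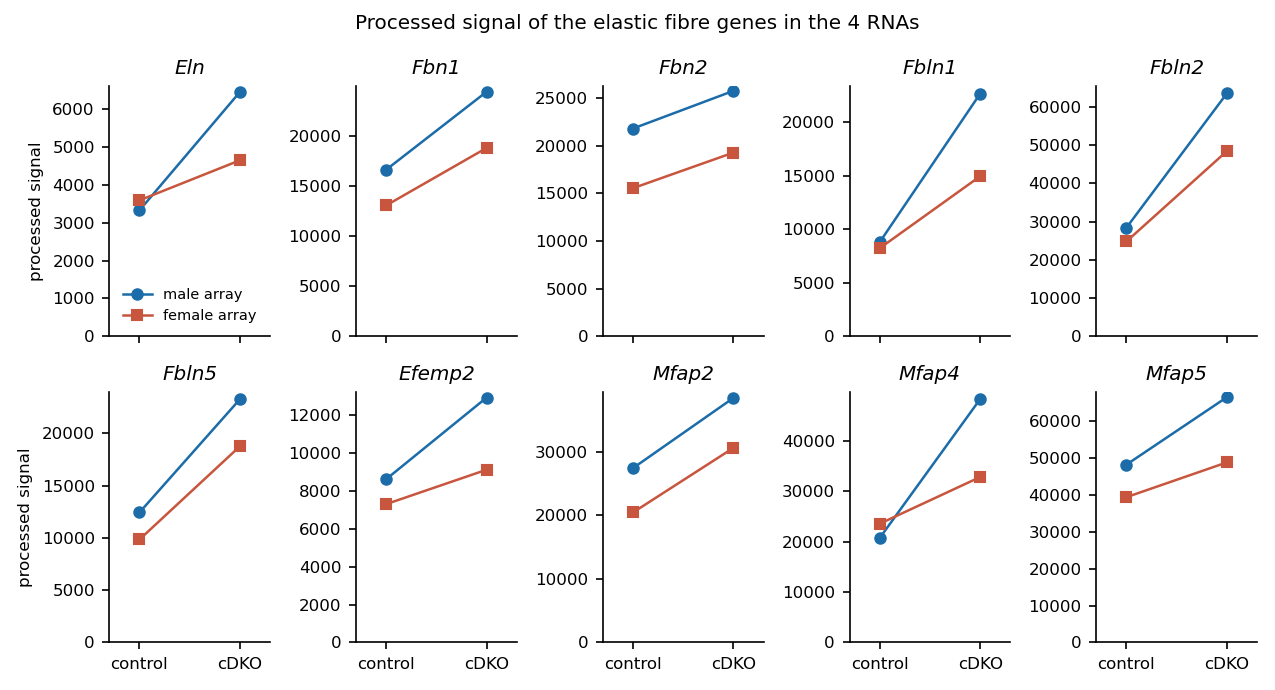
Processed signal (background-subtracted and dye-normalized by the scanner software) of each gene in control and cDKO RNA, with circles for the male array, squares for the female array and lines joining the 2 RNAs of an array. In all 10 panels both lines rise from control to cDKO, and the male line of Mfap4 crosses the female line, as does that of Eln.

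**Figure D2:**
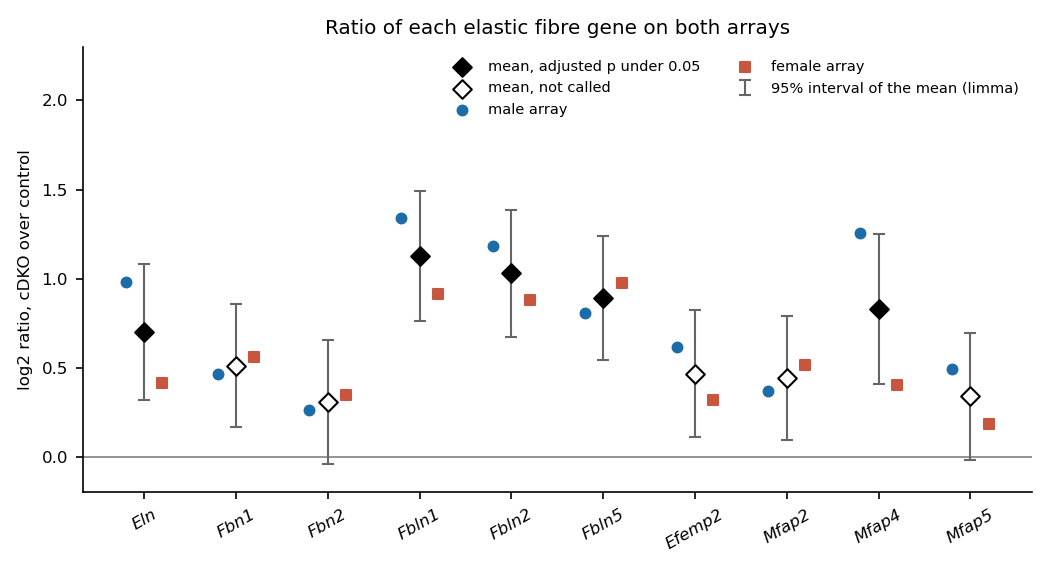
Log2 ratio of cDKO over control for each gene on the male array (circles) and the female array (squares), with the mean of both (diamonds, filled where the adjusted p is under 0.05) and its 95% interval from limma (bars). The intervals of Fbn2 and Mfap5 reach below 0, and Fbln1 has the highest mean at 1.13.

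Elastin itself, the core protein of the fibre, is encoded by Eln. Its processed signal was 3330 in male control and 6463 in male cDKO RNA, and 3595 in female control and 4654 in female cDKO RNA. Both cDKO RNAs were above both controls. The log2 ratio was 0.70 ± 0.40 (SD, n = 2; 1.62-fold), with 0.98 for males and 0.42 for females. That spread is wide beside the mean, and the call (limma adjusted p = 0.0357) rests on a variance pooled over probes more than on the spread of Eln itself. The call was lost under 5 of 10 other settings. In those the log2 ratio stayed between 0.66 and 0.90 and the limma adjusted p lay between 0.0676 and 0.486. The only Eln probe lies on mm9 at chr5:135179129-135179188, on the minus strand, from base 3058 of its transcript. To show what was hybridised, the first 30 bases of the probe are given.

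Eln probe: ataccggaagccttgacgatggatttggtg

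Fibrillins form the backbone of microfibrils, and neither of their genes passed the test. Fbn1, the main fibrillin of adult tissue and the gene altered in Marfan syndrome, had signals of 16619 and 24404 in male control and cDKO RNA and of 13055 and 18794.5 in female control and cDKO RNA. The ratios were close to each other, at 0.46 and 0.56 log2, and their mean of 0.51 had a 95% interval of 0.16 to 0.86 (limma adjusted p = 0.108). With an intensity trend in the variance it was called (adjusted p = 0.0205), and in the other 9 settings it was not. Fbn2, the fibrillin most prominent in the embryo, was measured by 2 probes whose mean log2 ratios were 0.31 and 0.30. At the brighter probe the signal went from 21782 in control to 25735 in cDKO RNA of males and from 15527 to 19258 of females. Its 95% interval ran from -0.041 to 0.65 (limma adjusted p = 0.402), so a rise of up to 0.65 log2 units and no change both lie within it.

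Fibulins are glycoproteins that bind elastin, fibrillin and basement membranes. Of 4 fibulin genes 3 rose, and the median log2 ratio of the 4 was 0.96. Fbln1, Fbln2 and Fbln5 held the highest mean ratios among the 10 genes, while Efemp2, at 0.47, lay below Mfap4, Eln and Fbn1. On the male array the order differed: Mfap4, at 1.25, lay above Fbln2, at 1.18, and Eln, at 0.98, above Fbln5, at 0.80. Fbln1, whose product binds elastin and fibronectin, had signals of 8791 and 22676 in male control and cDKO RNA and of 8226 and 14958 in female control and cDKO RNA. Its cDKO values were far above both controls, at 1.13 ± 0.30 log2 (SD, n = 2; 2.18-fold; limma adjusted p = 0.00082). A second probe 448 bases further along the same transcript gave log2 ratios of 1.44 and 1.09 on the male and female array, with a mean of 1.26. Both probes share their target transcript and are not independent replicates. The first ends on the stop codon of an open frame and is printed whole with that codon in capitals.

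Fbln1 probe, mm9 chr15:85115550-85115609: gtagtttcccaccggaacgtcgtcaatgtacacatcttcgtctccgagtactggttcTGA

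Fbln2, a fibulin of elastic fibres and basement membranes, was at 28415 and 63578 in male control and cDKO RNA and at 24806 and 48465 in female control and cDKO RNA. The ratio was 1.03 ± 0.21 log2 (SD, n = 2; 2.04-fold; limma adjusted p = 0.00142). Fbln5, which tethers elastin to microfibrils and to cells and is needed for elastic fibre formation in mice, went from 12435 to 23265 in males and from 9847 to 18766 in females. At 0.89 ± 0.12 log2 (1.85-fold; limma adjusted p = 0.00391) it had the smallest spread between arrays of the called genes. Its second probe, 3275 bases further along the transcript, was dim, with signals of 40.1 and 69.8 in males and 30.8 and 58.0 in females. The processed signals of the dim probe gave ratios, not in log2, of 1.74 and 1.88, near the 1.87 and 1.91 of the bright one. After normexp and loess the log2 ratios of the dim probe were 0.32 and 0.51, or 0.39 and 0.65 without the offset of 50, and the mean of 0.42 with the offset did not pass (limma adjusted p = 0.216). The first 30 bases of the bright probes of these genes show their targets, at mm9 chr6:91222118-91222177 and chr12:102988153-102988212.

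Fbln2 probe: ctcaactatggctacagctgacattccatt

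Fbln5 probe: ttaagagtttttacccaactgtgttggaag

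Efemp2, the fourth fibulin, recruits lysyl oxidase to elastin and is also needed for elastic fibres in mice. Its signals were 8633 and 12949 in males and 7313 and 9133 in females, control first. Both cDKO values were above both controls, the male one by more. The mean of 0.47 ± 0.21 log2 had a 95% interval of 0.11 to 0.82 and was not called (limma adjusted p = 0.161), except with an intensity trend (0.0472). The difference between Efemp2 and the other fibulins was not tested.

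Glycoproteins that sit on microfibrils varied in their ratios. Mfap4, a fibrinogen-related protein that binds elastin and fibrillin, went from 20737 to 48324 in males and from 23574 to 32850 in females. The male array gave 1.25 log2 and the female array 0.40, the widest gap of the 10 genes, with a mean of 0.83 ± 0.60 (SD, n = 2; 1.78-fold; limma adjusted p = 0.023). With an SD this close to the mean, the call rests mostly on the pooled variance, and it was lost under 4 of 10 other settings (adjusted p from 0.0755 to 0.477). Its probe, from which 30 bases follow, lies at mm9 chr11:61302147-61302206.

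Mfap4 probe: atatgtggggctggaagtgggtgggtagca

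Mfap2 and Mfap5 encode MAGP-1 and MAGP-2, small proteins bound to fibrillin, and neither passed. Mfap2 was measured by 2 probes, of which the brighter went from 27420 to 38465 in males and from 20444 to 30603 in females. Its mean was 0.44 ± 0.10 log2 (95% interval 0.094 to 0.79; limma adjusted p = 0.179), and the other probe gave 0.41. Mfap5 went from 48197 to 66481 in males and from 39378 to 48808 in females. Its mean of 0.34 ± 0.22 log2 had a 95% interval of -0.018 to 0.69 (limma adjusted p = 0.355). The remaining probes lie on mm9 at chr2:125126727-125126786 for Fbn1, chr18:58168440-58168499 for the brighter Fbn2 probe, chr19:5481762-5481821 for Efemp2, chr4:140571828-140571887 for the brighter Mfap2 probe and chr6:122478591-122478650 for Mfap5.

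Size and call were read apart, because the calls depend on how the variance was set. A count without a test, chosen after the data were seen, took genes at least 1.5-fold higher on both arrays. Fbln1, Fbln2 and Fbln5 met it, 3 of 10 genes against 1.49% of all genes. On the male array alone 6 of 10 were at least 1.5-fold higher, against 6.67% of all genes, and on the female array alone 3 of 10, against 3.34%. The male array added Eln, Efemp2 and Mfap4 to the 3 fibulins. With the scanner software's processed signals the median ratio of the 10 genes stayed within the spread of the arrays, but 0 of 10 passed the test, where 0.572% of all genes were called higher. There 7 of the 10, and 12.1% of all genes, had an unadjusted p under 0.05. With median centring in place of loess, the intensity-dependent correction of the dyes, 1 of 10, Fbln1, was called, against 0.696% of all genes. With an intensity trend in the variance 7 of 10 were called, against 4% of all genes.

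**Figure D3:**
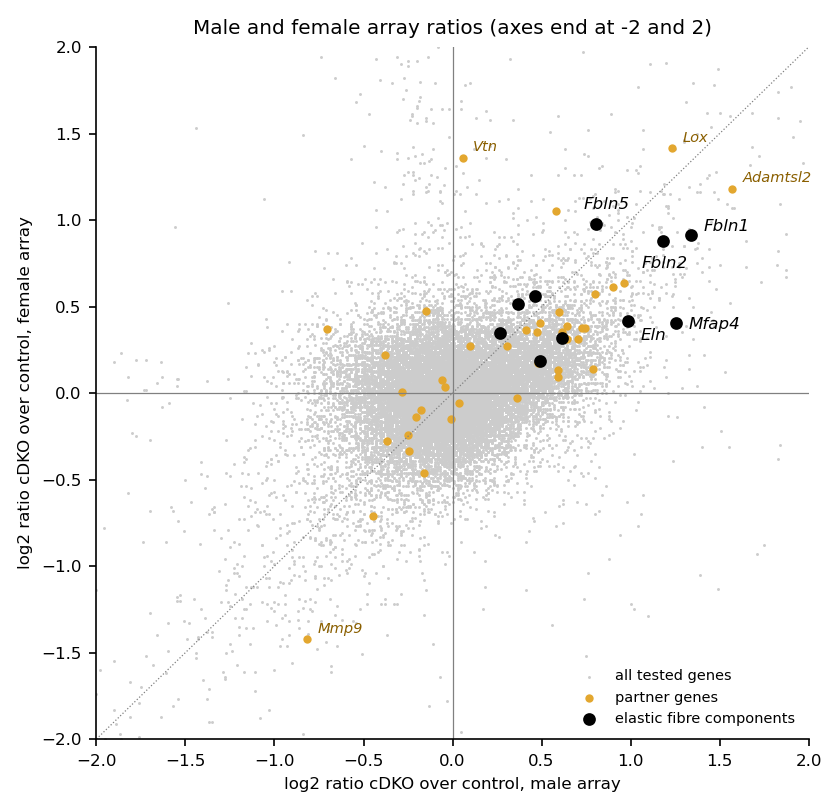
Log2 ratio of cDKO over control on the male array (x) against the female array (y) for all tested genes (grey), genes that work with elastic fibres (orange) and the 10 components (black), with a dotted line of equal ratios. All 10 black points lie to the right of and above 0, and Fbln1, Fbln2 and Fbln5 are the highest of them on the female axis. The axes end at -2 and 2.

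**Figure D4:**
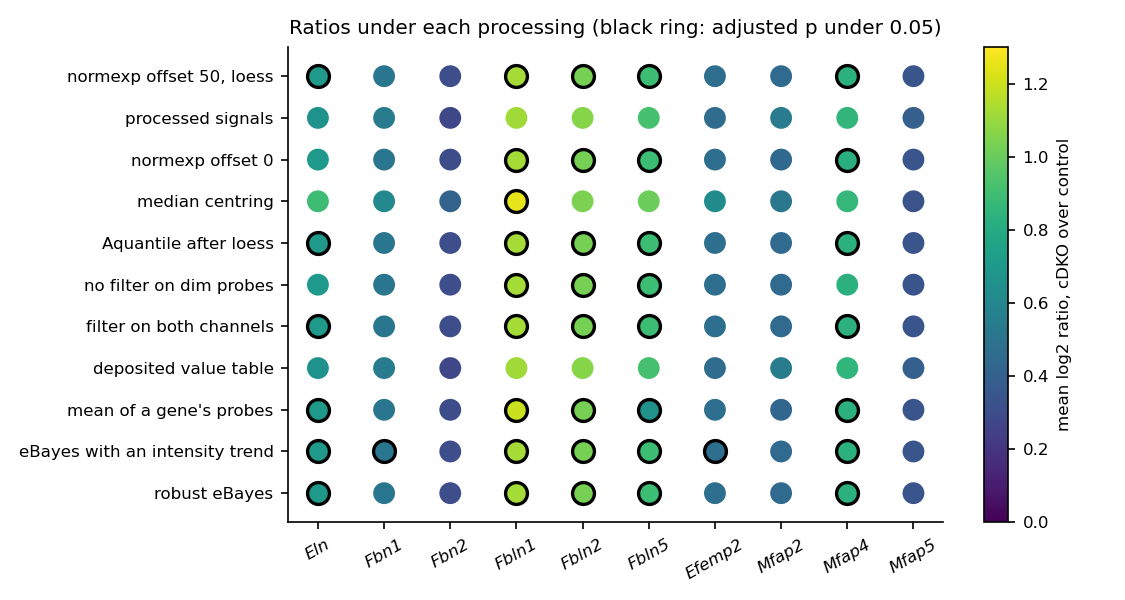
Mean log2 ratio of cDKO over control (colour) of the 10 genes (columns) under the processing reported and 10 others (rows), with a black ring where the limma adjusted p is under 0.05. Colours change most down the columns of Fbln5, from 0.65 to 1.01, and Eln, from 0.66 to 0.90. All rings are lost with the processed signals and the deposited value table. The rows of Aquantile, the other filters and the trended or robust variance hold the same ratios as the processing reported.

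Promoters were examined because these genes moved in the same direction. The RefSeq table (GRCm38.p6) held 11 windows for 6 of the 10 genes, Fbn1, Fbln1, Fbln2, Fbln5, Efemp2 and Mfap2. In each the 250 bases before the transcript start were searched on both strands for GGTGTGA, the core of the T-box binding site, for GGGCGG, the GC box bound by Sp1, for TATAAA and for the CArG box bound by SRF. GGTGTGA was found in 1 window, that of Fbln5, at 112 to 106 bases before the start, and 3.33% of all 32851 windows hold it. GGGCGG was found in 8 of the 11 windows, while 32.7% of all windows hold it. All 6 genes had it in at least 1 window, a count per gene for which no share over all genes was taken. Windows of 1 gene can overlap, as those of Fbln1 and 2 of the 3 of Efemp2 do. Those 2 Efemp2 windows hold the same GGGCGG matches. TATAAA and the CArG box were in 0 of the 11 windows and in 12.4% and 1.47% of all windows. These matches describe the letters only. The windows of the 3 fibulin genes that rose are printed from the start farthest upstream, 5′ to 3′ on the gene's strand, at chr15:85205699-85205948 for Fbln1, chr6:91212514-91212763 for Fbln2 and chr12:101819120-101819369 for Fbln5, with matches in capitals. The Fbln1 window printed has none, and its second, overlapping window has a GGGCGG match. In none of the printed windows do the capitals of different motifs overlap.

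Fbln1 promoter: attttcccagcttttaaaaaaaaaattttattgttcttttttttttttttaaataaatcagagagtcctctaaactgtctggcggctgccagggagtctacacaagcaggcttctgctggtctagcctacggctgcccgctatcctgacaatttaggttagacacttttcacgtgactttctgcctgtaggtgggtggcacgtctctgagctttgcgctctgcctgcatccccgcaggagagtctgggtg

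Fbln2 promoter: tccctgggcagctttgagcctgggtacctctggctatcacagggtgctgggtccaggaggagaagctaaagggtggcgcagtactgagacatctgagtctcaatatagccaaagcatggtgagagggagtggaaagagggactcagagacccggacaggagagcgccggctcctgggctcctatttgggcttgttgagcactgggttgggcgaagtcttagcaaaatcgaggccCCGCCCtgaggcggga

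Fbln5 promoter: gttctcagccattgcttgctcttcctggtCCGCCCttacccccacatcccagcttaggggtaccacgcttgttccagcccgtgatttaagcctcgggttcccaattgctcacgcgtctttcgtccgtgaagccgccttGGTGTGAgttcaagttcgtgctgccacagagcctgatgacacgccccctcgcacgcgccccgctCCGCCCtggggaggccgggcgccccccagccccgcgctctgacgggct

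Genes that build, bind or degrade elastic fibres gave a wider picture. Of 42 such genes 40 were tested, 6 rose, against 2.18% of all genes called higher, and 1 fell, against 2.27% called lower. Their median log2 ratio was 0.33. In Ltbp2 and Ltbp4, which encode latent TGF-beta binding proteins of microfibrils, the log2 ratios were 0.80 ± 0.23 and 0.76 ± 0.20 (SD, n = 2; limma adjusted p = 0.0106 and 0.0141). All 4 genes of that family were higher on both arrays, with Ltbp1 and Ltbp3 at 0.45 and 0.53 and not called. Lox encodes the lysyl oxidase that crosslinks elastin and collagen. At its brighter probe the signal went from 5389 to 12269 in males and from 4219 to 10975 in females. The rise there was 1.32 ± 0.13 log2 (limma adjusted p = 0.000112). The other probe went from 3701 to 8357 in males and from 2979 to 5382 in females. Its mean log2 ratio was lower, at 1.03 (limma adjusted p = 0.00144). Lox kept its call in all other settings except the deposited value table. Its relative Loxl1, which acts on elastin, was at 0.41 and not called (limma adjusted p = 0.215). Fkbp10, a chaperone of collagen and elastin in the endoplasmic reticulum, rose by 0.69 ± 0.16 (limma adjusted p = 0.0253). Of the called partners Ltbp2, Ltbp4, Fkbp10 and Hmcn1 lost their calls with processed signals and with median centring.

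Other partners were mixed. Hmcn1, the large fibulin-like hemicentin, rose by 0.82 ± 0.33 log2 (SD, n = 2). The fibulins Efemp1 and Fbln7 were at -0.32 and 0.48 and not called (limma adjusted p = 0.369 and 0.14). Adamtsl2, a secreted protein that binds fibrillin and latent TGF-beta binding protein, was dim in control RNA, with signals of 35.6 in males and 53.7 in females. In cDKO RNA it was at 232.6 and 147.5, and it rose by 1.38 ± 0.28 (limma adjusted p = 0.000109). With processed signals its mean log2 ratio was 2.08 and was not called (limma adjusted p = 0.0602). Of the elastin-degrading enzymes tested, Mmp9, a gelatinase, fell by 1.12 ± 0.43 (limma adjusted p = 0.00137), from 202.9 to 84.3 in males and from 171.7 to 45.6 in females. The Mmp9 call was lost with median centring and with the deposited value table (limma adjusted p = 0.0682 and 0.276). Ctsk, Ctss and Elane were at -0.081, -0.29 and -0.0099 and not called. Emilin1, which lies between elastin and microfibrils, had log2 ratios of 0.79 in males and 0.14 in females and was not called (limma adjusted p = 0.214).

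**Figure D5:**
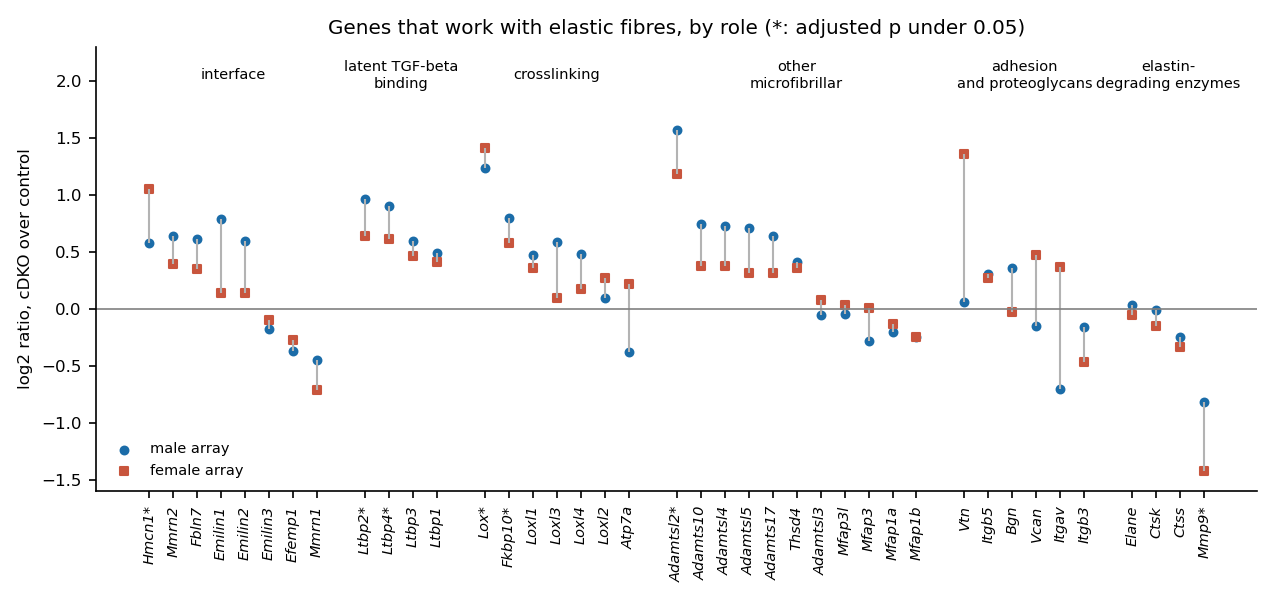
Log2 ratio of cDKO over control on the male (circles) and female (squares) array for the 40 tested genes that work with elastic fibres, grouped by role, with a line joining the arrays of a gene and an asterisk on those whose limma adjusted p is under 0.05. Latent TGF-beta binding proteins lie above 0 on both arrays, while Vtn and Itgav have widely parted arrays.

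Markers of cell types of the ureter and of neighbouring tissues were read on the same arrays, and some rose while others fell. Of all genes 2.18% were called higher and 2.27% lower, and 16% had an unadjusted limma p under 0.05 in either direction. Of 10 smooth muscle markers 9 fell and 0 rose, and their summed processed signal was 608686 in male control against 116164 in male cDKO RNA, and 369600 against 71409 in females. Of 10 markers of fibroblasts and adventitia 6 rose and 0 fell, with sums of 299878 against 558678 in males and 253838 against 500104 in females. Of 10 endothelial markers 3 rose, with sums of 44936 and 60947 in males and 36280 and 44756 in females. Of 7 tested kidney markers 5 rose, with sums over 10 markers of 2949 and 9801 in males and 3516 and 4912 in females. Those sums hold Wt1, at 2005 in male and 2322 in female control RNA. Wt1 was not called, with log2 ratios of 0.85 in males and -0.26 in females. They also hold the untested Umod, Slc12a1 and Nphs1, of which Umod went from 76.1 to 5.70 in females. Of 10 tested cartilage markers 4 rose, with sums over 11 of 10011 and 20026.5 in males and 8759 and 13321 in females, and the marker Comp was not well above background in any RNA. The 4 were the collagen genes Col2a1, Col9a1, Col9a2 and Col11a1. Acan, Matn1, Matn3 and Col9a3 were not called. Nor were Sox9, at log2 ratios of -1.01 in males and 0.094 in females, and Hapln1, at -0.55 and 0.32. Of 10 urothelial markers 0 were called by limma and 3 had an unadjusted p under 0.05, with sums of 343838 and 425348 in males and 283877 and 345923 in females. All 10 were well above background in all 4 RNAs, as were the 10 smooth muscle markers. The part of these cell types in the elastic fibre values was not tested.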

How the data were processed

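RNA of mouse ureters was hybridised to 2 two-colour Agilent arrays. Per the file headers, the deposited intensities were read by Agilent Feature Extraction 10.7.3.1, which gives mean and local background intensities per spot and channel, processed signals (background-subtracted and dye-normalized), a log10 ratio of red over green, and flags for spots above background, saturated or outlying. The log10 ratio was not used in the fit. The direction of each ratio came from the dyes in the labels. The deposited value table holds a score per probe that the labels do not define. It reads as a signed fold, has a median of 1 on each array, and equalled the ratio of processed signals within 0.001 log2 for 28 of 28 values of the elastic fibre probes and for 30968 and 31217 of the 44397 values on the male and female array. It holds exactly 1 for 11933 and 11692 of them.

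From the intensities, background was corrected with normexp (offset 50) and ratios were normalized by loess within each array in R 4.3.3 with limma 3.58.1. Control spots and outlier spots were left out, the spots of a probe were averaged, and 29274 of 39429 probes were kept, those well above background on both arrays in the cDKO or in the control RNA. Ratios were turned to cDKO over control on both arrays and their mean was tested against 0 (lmFit, eBayes, two-sided). The fit has 1 residual and 13.9 prior degrees of freedom, so a p-value comes mostly from the variance pooled over probes. Levels are processed signals. A gene stands for its brightest kept probe.

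The 10 genes and all lists were chosen with earlier results of these data known. Named were all 10 genes, the called partners, and Tbx2, Tbx3 and Tbx18. Other partners, single cell type markers, sex-linked and liver transcripts were named after their values were seen. The other settings were processed signals, offset 0, median centring, Aquantile, other filters, the deposited table, averaging over the probes of a gene, and a trended or robust variance. Code for the fit was tested on simulated data.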

Additional observations from a re-analysis of the deposited data

Results flagged for a closer look

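Some genes had ratios of opposite sign on the male and female arrays, and for each the difference was not tested. Among partners of elastic fibres the log2 ratios of cDKO over control were, female array first, 0.37 and -0.70 for the integrin subunit gene Itgav, 0.47 and -0.15 for the proteoglycan gene Vcan, 0.22 and -0.38 for the copper transporter gene Atp7a, and -0.027 and 0.36 for the proteoglycan gene Bgn. They were 0.0054 and -0.28 for Mfap3, 0.074 and -0.058 for Adamtsl3, 0.038 and -0.041 for Mfap3l, and -0.056 and 0.036 for Elane. None of the 10 elastic fibre genes was among these, and 9440 of the 23419 genes tested had opposite signs.

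Y-linked genes gave 4.12 and -0.53 (Ddx3y) and 3.61 and -0.29 (Eif2s3y). Liver transcripts gave 2.68 and -0.78 (Alb), 3.65 and -0.33 (Afp), 2.70 and -0.18 (Apoa1), 1.35 and -0.31 (Apoa2), 2.71 and -0.54 (Ahsg), and 3.04 and -0.45 (Fgb).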

How the results depend on the processing

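The direction of all 10 genes held under each of the 10 settings tried, and their median log2 ratio lay between 0.58 and 0.75, or at 0.47 without replicate 1 and 0.71 without replicate 2. Aquantile, the other filters and the trended or robust variance left the ratios of these genes as they were, so their direction could not change there. For these genes the deposited table holds the same ratios as the processed signals. The calls did not hold in all settings. Of the 10 genes, 5 were called higher as reported, 0 with processed signals, 1 with median centring, 3 without a filter on dim probes and 0 with the deposited table, where 7, 5, 9 and 8 had an unadjusted limma p under 0.05, as did 12.1%, 5.9%, 13.3% and 10.4% of all genes tested there. Partners called higher, 6 as reported, were 1 with processed signals, 2 with median centring, 0 with the deposited table and 10 with an intensity trend. Of all genes, 2.18% were called higher as reported, 0.572% with processed signals and 0.696% with median centring. The share was 1.25% without a filter on dim probes, 0% with the deposited table and 4% with an intensity trend. Partners called lower, 1 as reported, were 0 with median centring and with the deposited table, where 1 and 2 had an unadjusted p under 0.05. They were 2 with a filter on both channels, with the mean of a gene's probes and with a robust variance. There 584, 582 and 586 of 21967, 23419 and 23419 genes were called lower. The count at least 1.5-fold higher on both arrays, chosen after seeing the data, was 3 as reported. It was 1 with median centring, 2 with the mean of a gene's probes and 3 to 6 with a replicate left out, where it rests on 1 array. Over all genes, calls higher and lower numbered 511 and 531 as reported, 134 and 210 with processed signals, 163 and 157 with median centring, 936 and 663 with an intensity trend, and 0 and 0 with the deposited table, where 2434 had an unadjusted p under 0.05. The share of calls that were higher was 49% as reported, 39% with processed signals and 58.5% with an intensity trend. The cause was not tested. With 2 arrays, leaving out 1 gives a value and no test, and spots near background such as the distal Fbln5 probe, at 3.29 to 5.35 times its local background, limit what a ratio can show.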
